A study of Mus musculus with 6 samples.

Results

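Methylated DNA immunoprecipitation sequencing (MeDIP-Seq) peaks that lie next to the centromeres were examined in mouse primary mesangial cells, the contractile cells of the kidney glomerulus. A peak was included when its summit lay between 3 and 6 Mb of chromosomes 1 to 19, chromosome 8 left out, in the mm9 assembly, where the sequence of each of these 18 chromosomes starts at base 3000001. Peaks sharing 1 bp or more were joined across the 6 samples, which gave 3726 regions of 170444 in all, and 3362 regions lay in the adjoining 6 to 9 Mb. A single one of the 3726 regions also held a peak whose summit was outside the window.

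The study set cells treated with TGF-β1, a cytokine that drives matrix deposition in kidney fibrosis, beside control cells, with 3 samples in each group. The TGF-β1 samples received 10 ng/ml for 72 h. The treatment label reads Control for the control samples, and nothing further says what these cells received. All cells were cultured in 25.5 mM glucose with 20% serum at passages 3 to 6, and the labels do not say whether replicates were separate cultures, so that the p-values measure only the spread between these samples. Peak lists carry no expression, and the cell type was not checked against markers. The control samples held 9407103 to 11494356 reads and the TGF-β1 samples 12634300 to 13291419, so the treatment cannot be told apart from depth.

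Mouse chromosomes carry the centromere at the end, and the assembly begins where the highly repeated centromeric DNA gives way to sequence that could be assembled. Pericentromeric heterochromatin of the mouse is built from long tandem arrays of the major satellite, which is usually densely methylated and packed with trimethylated lysine 9 of histone H3. MeDIP pulls down fragments with an antibody to 5-methylcytosine, so that a peak needs both methylated CpG sites and reads that can be placed.

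The regions with the highest pileup lay at the very edge of the sequence, those of chromosome 9 in a tandem repeat. In fold enrichment the regions of this repeat were low, at 1.33 to 2.40 against a window median of 6.36. A region far from the edge, near Nlrp2, reached 25.8 to 28.1. The sequences below are mm9 reference, plus strand, 5′ to 3′, with every CpG dinucleotide, the main target of methylation, in capitals. Units A (chr9:3001036-3001269) and B (chr9:3037255-3037488) show the repeat of chromosome 9, from the first and the last of its 6 regions. Unit B was picked as the stretch of the last region most like unit A, so its match is the best there and not a typical one. It matched 221 of the 234 bases of unit A without gaps (94.4%) over a distance of 36.2 kb.
Unit A: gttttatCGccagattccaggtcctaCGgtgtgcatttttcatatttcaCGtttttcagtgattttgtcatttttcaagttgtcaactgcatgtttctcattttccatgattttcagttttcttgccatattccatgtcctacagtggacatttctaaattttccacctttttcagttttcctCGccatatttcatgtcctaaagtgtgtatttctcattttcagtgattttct
Unit B: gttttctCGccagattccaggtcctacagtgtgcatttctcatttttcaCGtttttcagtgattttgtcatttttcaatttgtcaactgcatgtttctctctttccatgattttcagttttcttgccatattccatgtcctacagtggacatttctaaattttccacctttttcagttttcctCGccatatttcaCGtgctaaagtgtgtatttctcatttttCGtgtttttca
The period of 234 bp is the unit length known for the mouse major satellite, although no satellite reference was at hand to compare the letters with. The next sequences are 300 bases around the summits of the highest region of chromosome 11, in an intron of Sfi1 (chr11:3050655-3050954), the highest of chromosome 12, which is intergenic (chr12:3003659-3003958), and the highest beyond the first 100 kb, which lies 23892 bp from Nlrp2 (chr7:5225896-5226195). They are shown because they held 12, 15 and 3 CpG sites and yet were all among the 15 regions with the highest pileup.
Sfi1 intron: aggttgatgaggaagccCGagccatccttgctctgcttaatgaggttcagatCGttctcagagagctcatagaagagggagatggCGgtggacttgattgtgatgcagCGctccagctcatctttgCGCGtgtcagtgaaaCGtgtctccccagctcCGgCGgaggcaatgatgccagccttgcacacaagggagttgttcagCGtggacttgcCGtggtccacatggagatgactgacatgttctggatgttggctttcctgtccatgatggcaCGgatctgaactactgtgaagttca
Chromosome 12, intergenic: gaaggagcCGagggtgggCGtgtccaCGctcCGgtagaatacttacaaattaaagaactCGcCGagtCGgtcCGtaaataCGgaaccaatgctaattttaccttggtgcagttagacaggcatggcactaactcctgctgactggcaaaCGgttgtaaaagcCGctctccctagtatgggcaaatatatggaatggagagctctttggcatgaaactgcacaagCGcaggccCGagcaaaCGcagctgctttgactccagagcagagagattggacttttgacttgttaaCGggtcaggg
Near Nlrp2: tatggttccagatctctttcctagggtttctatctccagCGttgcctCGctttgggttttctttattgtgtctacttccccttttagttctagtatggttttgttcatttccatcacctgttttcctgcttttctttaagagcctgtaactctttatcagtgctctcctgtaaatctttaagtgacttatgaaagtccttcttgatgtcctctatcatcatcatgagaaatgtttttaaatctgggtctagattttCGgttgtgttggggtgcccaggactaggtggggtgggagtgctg
The last sequences carry the comparison of TGF-β1 with control. They are the intron of Cdk14 (chr5:5197246-5197545) and the stretch beside Esr1 (chr10:5747305-5747604) where pileup was higher in TGF-β1 samples at the smallest p-values, and the intron of Cdk6 (chr5:3436195-3436494) where only TGF-β1 samples had a peak.
Cdk14 intron: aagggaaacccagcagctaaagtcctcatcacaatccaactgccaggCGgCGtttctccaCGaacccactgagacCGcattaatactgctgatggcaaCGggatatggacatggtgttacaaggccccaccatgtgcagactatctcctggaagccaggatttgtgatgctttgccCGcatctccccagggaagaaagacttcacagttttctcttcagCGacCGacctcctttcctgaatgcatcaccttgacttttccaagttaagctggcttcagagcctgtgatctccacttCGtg
Near Esr1: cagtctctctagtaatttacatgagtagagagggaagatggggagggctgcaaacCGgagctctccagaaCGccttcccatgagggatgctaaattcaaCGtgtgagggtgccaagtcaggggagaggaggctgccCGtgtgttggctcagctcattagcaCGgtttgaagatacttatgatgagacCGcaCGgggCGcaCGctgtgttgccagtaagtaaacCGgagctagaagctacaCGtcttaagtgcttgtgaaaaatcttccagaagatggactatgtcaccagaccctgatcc
Cdk6 intron: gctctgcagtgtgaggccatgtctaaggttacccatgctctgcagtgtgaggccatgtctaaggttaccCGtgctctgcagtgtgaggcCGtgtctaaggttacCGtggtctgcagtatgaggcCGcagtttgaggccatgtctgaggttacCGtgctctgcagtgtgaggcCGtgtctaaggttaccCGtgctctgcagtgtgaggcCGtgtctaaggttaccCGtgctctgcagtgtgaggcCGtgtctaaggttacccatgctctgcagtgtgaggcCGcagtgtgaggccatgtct
These stretches held 9, 11 and 11 CpG sites.

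To establish whether the ends of the chromosomes are denser in methylation peaks, the window was compared with the rest of the same chromosomes within each sample. Peaks were slightly denser, longer, higher over background and more often shared next to the centromeres. The window held 1807, 2037 and 2284 peaks in control samples 1 to 3 and 2221, 2282 and 2361 peaks in TGF-β1 samples 1 to 3. This came to 33.6, 37.9 and 42.5 peaks per sequenced Mb in control and 41.3, 42.4 and 43.9 in TGF-β1 samples, against 32.4, 36.0 and 40.0, and 40.6, 40.1 and 42.1, in the rest. Every sample was thus higher in the window, while the samples themselves differed by far more than window and rest did. The mean density was 40.3 ± 3.85 peaks per Mb (SD, n = 6) in the window and 38.5 ± 3.63 in the rest, a difference of 1.74 (exact sign-flip permutation test, two-sided, p = 0.03125, the smallest that 6 samples allow; adjusted over 6 measures, p = 0.0375). The call rested on chromosome 11, without which the difference was 0.193 peaks per Mb and 4 of 6 samples were higher (exact sign-flip test, adjusted p = 0.375), and it was also lost without chromosome 19 (0.774, adjusted p = 0.075) and where each chromosome was given the same weight (0.953, adjusted p = 0.075), the alternatives without chromosome 11 and with equal weights having been chosen after the data were seen.

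The window was not richer in CpG than the rest, at 8.28 against 8.48 CpG per kb. Per 1000 CpG, the samples held 4.06 to 5.31 peaks in the window and 3.82 to 4.97 in the rest, with a mean difference of 0.325 that was positive in 6 of 6 samples (exact sign-flip test, adjusted p = 0.0375). Mean peak length was 378, 390 and 399 bp in control and 399, 392 and 405 bp in TGF-β1 samples, and exceeded the rest by 12.5 ± 2.92 bp (SD of the difference, n = 6; exact sign-flip test, adjusted p = 0.0375). The share of peaks that overlapped a peak of another replicate of the same group was 79.7 to 86.6% in the window and 78.1 to 85.1% in the rest, higher by 1.19 ± 0.591 percentage points (n = 6; exact sign-flip test, adjusted p = 0.0375). Median fold enrichment, the pileup divided by the local background of the same sample, was 6.36 ± 0.171 in the window and 6.22 ± 0.0964 in the rest, higher by 0.147 in the mean and in 6 of 6 samples (exact sign-flip test, adjusted p = 0.0375). Median pileup, the depth of extended reads at the summit per 1000000 reads, was 1.83 ± 0.120 against 1.77 ± 0.107, with 4 samples higher and 2 equal (exact sign-flip test, adjusted p = 0.125).

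**Figure D1:**
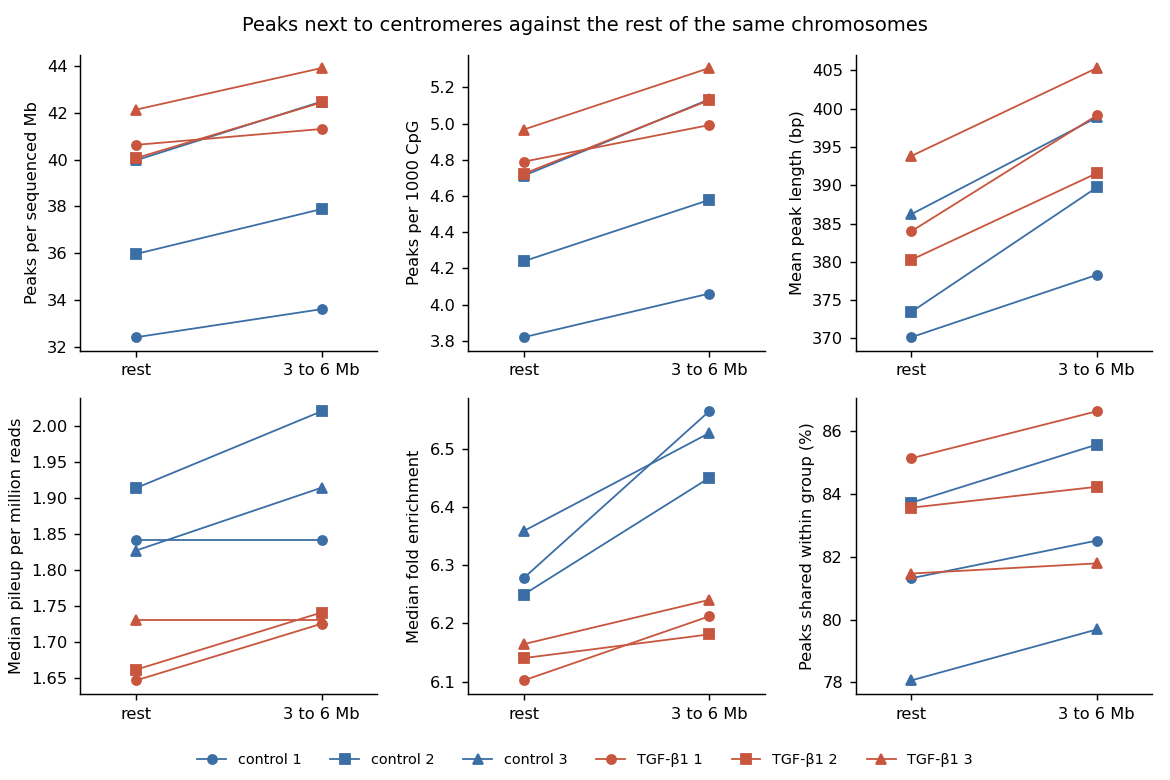
Each panel plots 1 measure for the rest of the 18 chromosomes and for the 3 to 6 Mb windows, with a line for each of the 6 samples (blue, control; red, TGF-β1), and the vertical axes do not start at 0. All lines rise except those of median pileup in control sample 1 and TGF-β1 sample 3, which are level, and the spread between samples is wider than the rise in density.

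The sequence just inside the window was not the only stretch with this density. Averaged over samples, 39.4, 41.5 and 40.0 peaks per Mb were found in the successive 1 Mb steps of the window, 38.3, 30.7 and 41.8 in the next steps, and 22.2 to 39.9 in those beyond, within the 20 Mb examined. CpG content moved with these values, from 8.10, 8.35 and 8.38 per kb in the window to 8.27, 7.26 and 8.27 in the next steps, and its part in the densities was not tested. Against the adjoining 6 to 9 Mb, window density was higher by 3.34 peaks per Mb in 6 of 6 samples (exact sign-flip test, p = 0.03125, adjusted p = 0.0938). The unadjusted p was the smallest that 6 samples allow, and the adjusted p depends also on the other measures. The mean length (393.8 against 391.7 bp), the median fold enrichment (6.36 against 6.38) and the share of shared peaks (83.4 against 83.6%) were close in both stretches, with exact sign-flip adjusted p-values of 0.25, 0.594 and 0.594.

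**Figure D2:**
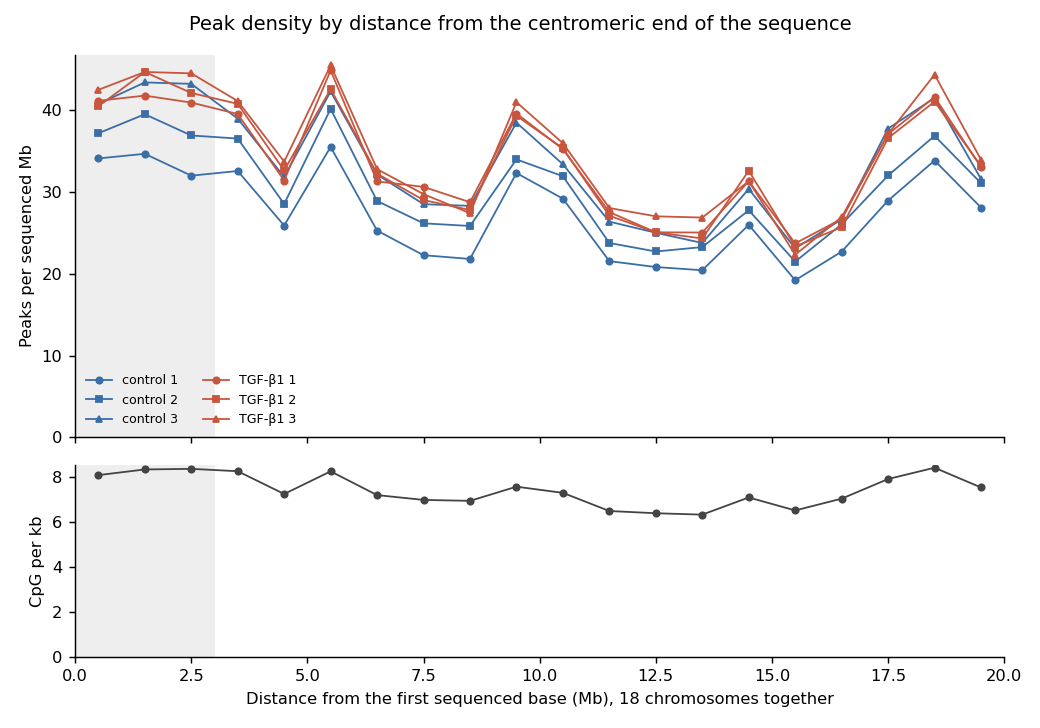
The upper panel plots peaks per sequenced Mb in 1 Mb steps from the first sequenced base, for each sample over the 18 chromosomes together, and the lower panel plots CpG per kb of the same steps, with the window in grey. Density is 39.4 to 41.5 in the window and dips to 30.7 in the second step beyond it, where CpG falls to 7.26 per kb.

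The chromosomes differed from each other much more than window and rest did over all of them. On 8 chromosomes the window was denser than its own rest in all 6 samples, on 9 it was sparser in all 6 samples, and on chromosome 7 the samples were divided. The ratio of window to rest was highest on chromosomes 11 (1.63), 2 (1.47) and 5 (1.38), and lowest on chromosomes 14 (0.228), 1 (0.517) and 3 (0.635), with a median of 0.976. Chromosome 11 held 174, 215 and 230 window peaks in control and 210, 227 and 236 in TGF-β1 samples, whereas chromosome 14 held 26, 23 and 22, and 20, 24 and 28. Chromosome 11 was thus far above chromosome 14 in every sample, and no test over chromosomes was made.

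Richness in CpG and uniqueness of the sequence differed along with density. Of the 8 denser windows 7 were richer in CpG than their rest, and all 9 sparser windows were poorer, with a Pearson r of 0.651 between the log2 density ratio and the log2 CpG ratio over the 18 chromosomes, whose points share the same 6 libraries. Chromosome 5 was the exception, with 8.43 CpG per kb in the window and 9.16 in the rest. On chromosome 14, 96.7% of the 31-base words of the window occurred more than once in the reference, on either strand, against 25.1% over all 18 windows and 25.8% in 6 to 9 Mb, which left 0.0953 Mb of its window with unique words. Per 1000 CpG, chromosome 14 held 1.29 peaks in the window and 4.73 in the rest. Reads that map to several places were not kept by the authors, and the part of this in the low density was not tested.

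**Figure D3:**
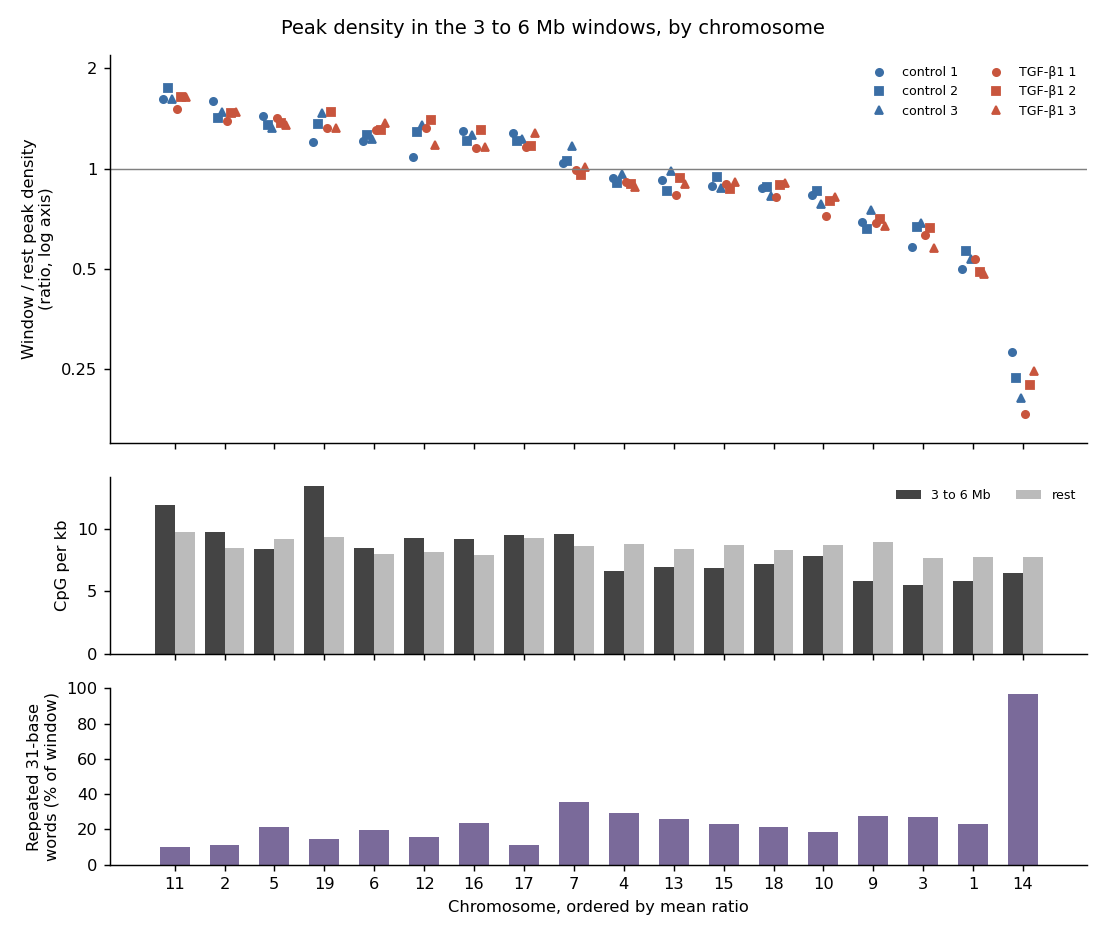
The top panel plots the ratio of window to rest peak density on a log axis for each chromosome and sample (blue, control; red, TGF-β1), the middle panel CpG per kb of window and rest, and the bottom panel the percentage of 31-base words of the window that occur more than once. The ratio runs from 1.63 on chromosome 11 to 0.228 on chromosome 14, whose window stands apart with 96.7% repeated words.

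Gene content was somewhat higher next to the centromeres, with 599 protein-coding genes or 11.1 per Mb against 8.91 in the rest. On average 47.9 ± 0.500% of window peaks (SD, n = 6) had an intergenic summit, against 44.8 ± 0.523% in the rest, higher in 6 of 6 samples. Introns held 40.1 ± 1.24% of window peaks against 42.9 ± 0.706%, and untranslated exons 1.88 ± 0.104% against 2.11 ± 0.0621%, both lower in 6 of 6 samples, although introns cover 38.1% of the window sequence and 36.6% of the rest. Adjusted over the 5 kinds of element, none of these differences passed 0.05 (exact sign-flip test, adjusted p = 0.0521 for intergenic, intron and untranslated). Coding exons held 8.17 ± 1.27% and 8.28 ± 1.10%, from 1.69 and 1.43% of the sequence, so that peaks lay in coding exons several times more often than their length alone would give in both.

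Regions were found again across samples at close to the same rate as elsewhere. Of the 3726 regions, 975 (26.2%) were called in every sample and 984 (26.4%) in a single sample, against 24.1% and 27.4% in the rest. Regions called in every sample had a median length of 512 bp, and those called in a single sample 295 bp. The median region held 47.9% GC and 2.36 CpG per 100 bp, close to the 47.7% and 2.42 of regions in 6 to 9 Mb. More than 50% of the words were repeated elsewhere in 1001 regions (26.9%), against 31.9% of regions in 6 to 9 Mb. Between samples, the log2 pileups of the 975 regions correlated with r of 0.781 to 0.867, a description across regions that are not independent replicates.

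Over all 18 chromosomes together, the first 100 kb of sequence was denser and higher than the rest of the window, and this rested largely on chromosomes 9 and 11. It held 84, 78 and 86 peaks in control and 87, 90 and 96 in TGF-β1 samples, or 48.3 ± 3.35 per Mb (SD, n = 6), against 38.4 ± 3.22 between 100 and 1000 kb. Median pileup per 1000000 reads was 2.71 ± 0.452 there, against 1.86 ± 0.118, 1.73 ± 0.127 and 1.82 ± 0.115 in the remaining stretches of the window, ordered by distance. Each sample was higher in the first 100 kb, at 2.27 to 3.39, than in any of these stretches, at 1.58 to 2.02. Mean peak length was 508 ± 22.2 bp and otherwise 383 to 395 bp. Chromosomes 9 and 11 held 9 to 12 and 20 to 24 of these peaks in each sample. Without them, an alternative added after seeing the data, the density of the first 100 kb was 34.6 ± 3.06 peaks per Mb, below the 37.6 ± 3.13 between 100 and 1000 kb in 5 of 6 samples. Median pileup was then 2.02 ± 0.196 against 1.86 ± 0.118, higher in 5 of 6 samples, and mean length 464 ± 21.4 against 396 ± 11.2 bp, higher in 6 of 6. Tandem repeats, defined by at least 70% identity at a period of 20 to 500 bp, were found in 20 regions of the window and in 4 regions in 6 to 9 Mb, and 6 of the 20 lay in the first 100 kb.

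Of the 15 regions with the highest pileup, among those with a peak in all 6 samples, 14 lay in the first 100 kb, 9 of them on chromosome 11 and 4 on chromosome 9. Highest of all was chr9:3000128-3002882, which overlaps the predicted gene Gm10722 and was also the longest region, at 2755 bp. Its pileup was 276, 262 and 289 in control and 268, 262 and 281 in TGF-β1 samples, a mean of 23.8 ± 3.20 per 1000000 reads (SD, n = 6) against a median of 2.29 over the 975 regions. Next came chr9:3034576-3035444 in Gm17535, at 277, 262 and 274 in control and 270, 264 and 273 in TGF-β1 samples, and chr9:3003102-3003760 near Gm11168, at 267, 241 and 290, and 260, 244 and 274. The groups overlapped in each of these regions in pileup as called. Per 1000000 reads they did not, at 25.1 to 27.9 in control and 20.7 to 21.1 in TGF-β1 samples for the region in Gm10722. The values were 23.8 to 27.9 against 20.5 to 21.2 in Gm17535, and 25.2 to 25.9 against 19.3 to 20.6 near Gm11168. The part of depth was not tested.

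This block spans 38.1 kb, and its 6 regions are those of chromosome 9 that met the tandem criterion. Matching of at least 70% was thus given by the choice. All 6 had the period of 234 bp shown by units A and B, with 70.7 to 81.5% of bases matching at that distance. This match was taken over 2000 bp around the middle of each region, and not over the region itself. In the reference, 73.9 to 100% of their words occurred elsewhere. In the 4 with a peak in every sample, the pileup stayed between 240 and 290 in all samples. Reads with the same start and strand were counted once and extended to 282 to 291 bp, which allows at most 564 to 582 over a base. The fold enrichment of the 6 regions was 1.33 to 2.40, far below the window's median of 6.36, the denominator being the local background in the same stretch.

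The block on chromosome 11 was mostly of another kind. Its 26 regions spanned 98.7 kb, 18 of them overlapping Sfi1, which codes for a centrin-binding protein of the centrosome, and 15 had a peak in all 6 samples, with mean pileups of 5.09 to 20.0 per 1000000 reads, or 2.23 to 8.76 times the median. The highest, chr11:3050081-3051096 in an intron of Sfi1, had a pileup of 122, 254 and 272 in control and 267, 249 and 225 in TGF-β1 samples, with control sample 1 far below the others. The region chr11:3092758-3093955, where Sfi1 and Drg1 overlap, was more even, at 189, 185 and 223 in control and 206, 194 and 221 in TGF-β1 samples. Unlike the tandem repeat of chromosome 9, most of this sequence was unique in the reference, with a median of 20.8% of words occurring elsewhere, and the tandem criterion was not met. The block was not uniform. At its edge, chr11:3000160-3000655 and chr11:3000963-3002596 held 36.7 and 37.2% GC. Their best matches were 50.5 and 50.3% of bases, at 117 and 59 bp, against 29.5% at chr11:3050081-3051096.

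The other regions of high pileup stood alone, and most of them were repeats of high copy number. The intergenic region chr12:3003560-3004036, whose words occur a median of 808 times, had a pileup of 174, 169 and 176 in control and 188, 175 and 207 in TGF-β1 samples, at a fold enrichment of 17.8 to 21.7. Beyond the first 100 kb, chr7:5225801-5226264 near Nlrp2, which codes for an oocyte-expressed NLR protein, was highest, at 149, 145 and 161 in control and 163, 157 and 174 in TGF-β1 samples, with a median of 3331.5 word copies. It was followed by chr15:4618137-4618584 near the complement gene C6, at 104, 98 and 105, and 115, 105 and 138, and by chr6:3150778-3151633, whose nearest gene at 170624 bp is the interferon-inducible Samd9l, at 73, 103 and 121, and 96, 113 and 108, where the median word copy number was only 2. The longest region outside chromosome 9 was chr1:5101507-5103929 in an intron of Atp6v1h, which codes for a subunit of the vacuolar proton pump, at 2423 bp.

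**Figure D4:**
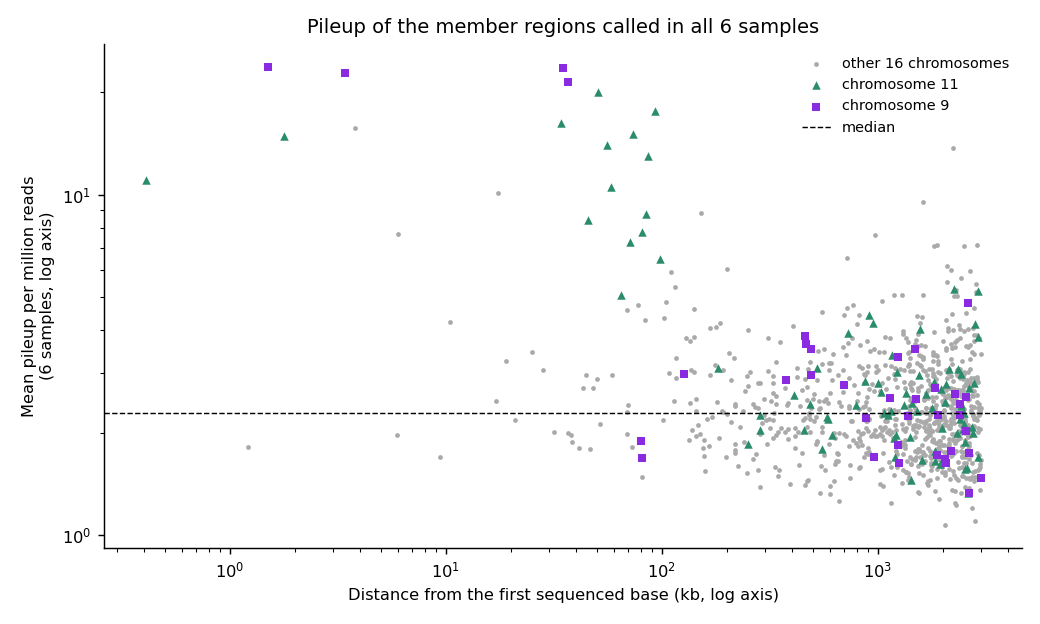
Mean pileup per 1000000 reads of the 975 regions called in every sample is plotted against distance from the first sequenced base, both on log axes, with chromosomes 9 (purple) and 11 (green) marked and the median of 2.29 as a dashed line. The highest regions sit within 100 kb on these chromosomes, at up to 23.8, while chromosomes 9 and 11 lie among the others farther in.

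To identify changes after TGF-β1 treatment, the window was compared between groups. The number of window peaks was 2043 ± 239 in control and 2288 ± 70.2 in TGF-β1 samples (SD, n = 3 each), with control sample 3 above TGF-β1 samples 1 and 2 (exact permutation test, two-sided, p = 0.3, where 0.1 is the smallest possible with 3 samples a group; adjusted over 5 measures, p = 0.375). Per 1000000 reads the order turned, with 175, 217 and 199 peaks in control and 174, 181 and 178 in TGF-β1 samples. The share of all peaks on these chromosomes was 2.46, 2.49 and 2.51% in control and 2.41, 2.51 and 2.47% in TGF-β1 samples (exact permutation test, adjusted p = 0.6). The groups thus overlapped in number and share.

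Peak height per read and over background was lower in every TGF-β1 sample than in every control sample, which the design cannot separate from depth. Median pileup per 1000000 reads was 1.84, 2.02 and 1.91 in control and 1.73, 1.74 and 1.73 in TGF-β1 samples (exact permutation test, p = 0.1, adjusted p = 0.25), but not divided by reads it was 19, 19 and 22 against 22, 22 and 23, the opposite direction with a shared value of 22. Median fold enrichment was 6.56, 6.45 and 6.53 in control and 6.21, 6.18 and 6.24 in TGF-β1 samples (exact permutation test, p = 0.1, adjusted p = 0.25). The rest of the chromosomes moved alike, from 6.25 to 6.36 in control to 6.10 to 6.16 in TGF-β1 samples. The excess of window over rest in fold enrichment was 0.168 to 0.286 in control and 0.0407 to 0.110 in TGF-β1 samples, again without overlap (exact permutation test, p = 0.1, adjusted over 6 measures, p = 0.6). Mean length was 389 ± 10.3 and 399 ± 6.87 bp (n = 3 each; exact permutation test, adjusted p = 0.333).

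Only regions with a peak in all 6 samples were fitted here. A change that left a sample without a peak was thus outside the test. None of the fitted regions passed an adjusted p below 0.01 with an absolute log2 fold change above 2. With limma on log2 pileup, after centring each sample on its median, 0 of the 975 regions did, and 0 of all 41744 regions of the genome (0.00%). The unadjusted p was below 0.05 in 47 of them (4.82%), of which 24 were higher and 23 lower after TGF-β1, beside 4.18% of all regions, so that the share was near the background. Over the 975 regions the median log2 fold change was 0.00079, and over all regions it was -0.0047. The directions depended on the scale, since with pileup per 1000000 reads in place of centring 58 regions reached this p, of which 2 were higher and 56 lower (all regions, 212 and 2387), at a median log2 fold change of -0.09 over the 975 regions and -0.10 over all.

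The lowest p-values belonged to regions with modest differences. In an intron of Cdk14, a cyclin-dependent kinase of the Wnt pathway, chr5:5197165-5197637 had a pileup of 18, 15 and 18 in control and 36, 26 and 28 in TGF-β1 samples, a log2 fold change of 0.59 ± 0.22 (SE; limma, unadjusted p of 0.0103, adjusted p = 0.999). At chr10:5747248-5747682, 12300 bp from the oestrogen receptor gene Esr1, it was 19, 19 and 21 against 38, 34 and 29, a log2 fold change of 0.55 ± 0.21 (limma, unadjusted p of 0.0133, adjusted p = 0.999). At chr13:3115124-3115542, in a repeat with a median of 3588 word copies whose nearest gene is Gdi2, it was 50, 44 and 59 against 82, 69 and 76. Control and TGF-β1 samples did not overlap in these regions. They were picked for their small p-values on these same samples, so the separation adds no support. None passed the adjusted test.

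In the other direction, the tandem-repeat regions of chromosome 9 near Gm11168 and in Gm10722 had log2 fold changes of -0.26 ± 0.07 and -0.25 ± 0.07 (limma, unadjusted p of 0.00145 and 0.00162, adjusted p = 0.999 for both). Their pileups as called, given above, overlapped between the groups, and per 1000000 reads that of the region in Gm10722 was 25.1 to 27.9 in control and 20.7 to 21.1 in TGF-β1 samples. Scaling thus separated the groups, and the part of depth was not tested. At chr4:4168967-4169541, in a repeat with a median of 108 word copies and with Penk, the proenkephalin gene, nearest, pileup was 27, 22 and 31 in control and 22, 14 and 21 in TGF-β1 samples, a log2 fold change of -0.73 ± 0.22 (limma, unadjusted p of 0.00233, adjusted p = 0.999). Control sample 2 and TGF-β1 sample 1 were equal there.

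Peaks found in all samples of a group and none of the other were few. There were 28 regions with a peak in all TGF-β1 and no control sample (0.751%, against 0.948% of all regions) and 7 with the reverse (0.188%, against 0.233%), again near the background in each direction. In an intron of Cdk6, a kinase of the G1 phase, chr5:3436052-3436596 had a pileup of 39, 36 and 32 in the TGF-β1 samples, and 93.2% of its words occur elsewhere in the reference. In an intron of Arid1b, a subunit of the SWI/SNF chromatin remodeller, chr17:5337817-5338155 had 28, 34 and 31, and in Spnb3, a spectrin gene, chr19:4713133-4713517 had 23, 24 and 31. Of the control-only regions the highest were chr2:4548919-4549252 in the splicing factor gene Prpf18 (19, 15 and 21), chr4:5579002-5579363 in Fam110b (14, 13 and 24) and chr9:3388780-3389112, 1730 bp from Alkbh8, a tRNA-modifying enzyme (18, 15 and 16). The lowest pileup that was called was 8 to 10 in these samples, and a region without a peak can still hold reads.

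**Figure D5:**
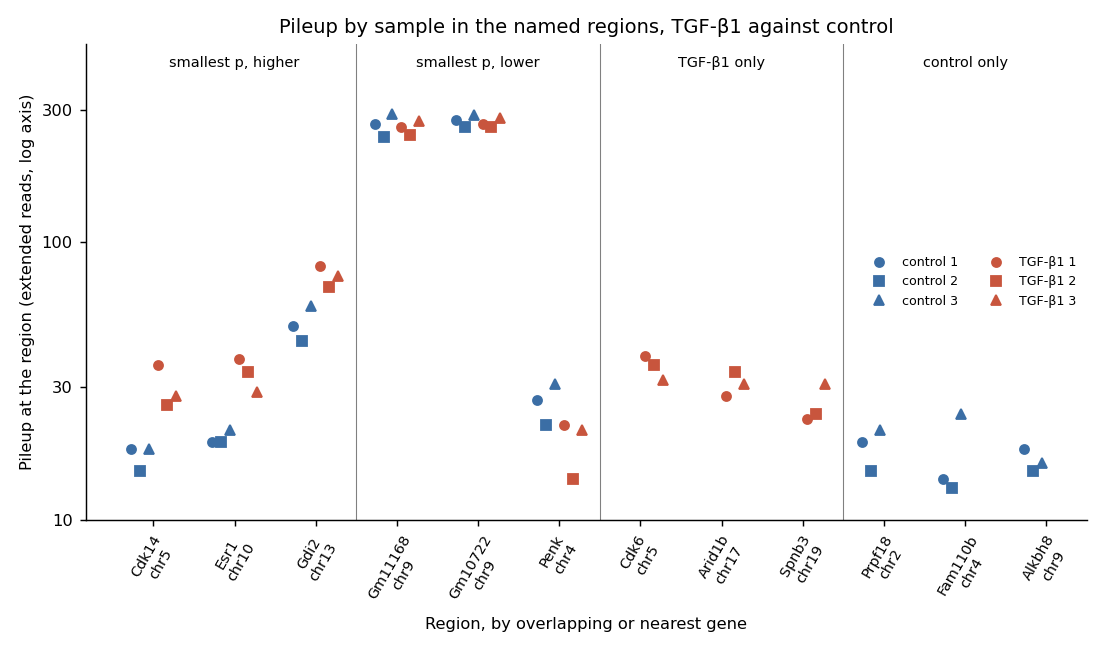
Pileup (extended reads at the region, log axis) is plotted by sample (blue, control; red, TGF-β1) for the regions of lowest limma p, 3 in either direction, and for the 3 highest found only in TGF-β1 or only in control samples, named by the overlapping or nearest gene. The tandem-repeat regions near Gm11168 and in Gm10722 stand at 241 to 290 in all samples, and the regions at Cdk14 and Esr1 are separated by group, at 15 to 21 in control and 26 to 38 in TGF-β1 samples.

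Peaks were then assigned to protein-coding genes and the 2 kb on either side. By midpoint, 599 protein-coding genes lay in the windows. The gene lists below were not limited to these, so a listed gene without a region may lie outside the windows. A region lay at 445 genes, with a median of 3 regions per gene. Of these, 14 (3.15%) had more peaks in every TGF-β1 than in every control sample, beside 3.90% of 16787 genes with a peak in the genome, and 2 (0.449%) had fewer, beside 0.346%. The latter were Atp6v1h, with 6, 8 and 6 peaks in control and 5, 4 and 5 in TGF-β1 samples, and Dnase1, which codes for a secreted nuclease, with 1 peak in each control and 0 in each TGF-β1 sample; both were picked after their values were seen. All TGF-β1 samples were deeper than all control samples, and the part of depth in these counts was not tested.

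The gene with most regions was Cdk14, which had 71, with 44, 43 and 41 peaks in control and 44, 39 and 45 in TGF-β1 samples. Arid1b had 63, with 26, 37 and 38, and 33, 37 and 46, and the scaffold gene Frmd4a had 50, with 25, 23 and 28, and 24, 26 and 28. The groups overlapped at each of these genes.

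A list headed matrix and TGF-β held 12 genes, among them Wnt, NF-κB and cytokine genes. Of these 12, 10 had a region nearby, and at none of the 10 did the groups separate in number of peaks. Lrp5, a Wnt co-receptor, had 19 regions with 4, 8 and 9 peaks in control and 10, 9 and 9 in TGF-β1 samples, control sample 3 and TGF-β1 samples 2 and 3 being equal. Col1a2, a chain of type I collagen, had 7 regions with 3, 3 and 5 peaks, and 3, 3 and 6. The NF-κB subunit gene Rela had 4 regions with 0, 3 and 3 peaks, and 4, 3 and 3. Ltbp3, which binds latent TGF-β, and the tumour suppressor gene Nf2 had 4 regions each, and the AP-1 gene Fosl1, the zinc finger gene Glis2, the cytokine genes Lif and Osm and the proton pump gene Tcirg1 had 2 each.

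Of a list of 7 genes headed DNA methylation and chromatin, which also held a transcription factor gene, Crem, 5 had a region. The de novo methyltransferase gene Dnmt3a had 13, with 9, 7 and 9 peaks in control and 7, 10 and 7 in TGF-β1 samples. Crebbp, a histone acetyltransferase, had 11, with 6, 5 and 7 peaks, and 3, 6 and 3. Kdm2a, a demethylase that binds CpG islands, had 6, with 1, 4 and 3 peaks, and 6, 3 and 4, and Crem, a cAMP-responsive factor, had 4. None of these genes differed without overlap.

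The imprinted cluster of chromosome 6 lies in its window, and all 6 genes of the imprinted list that were found in the annotation, of 7 listed, had a region. Ppp1r9a, which codes for neurabin, had 35 regions with 17, 15 and 21 peaks in control and 25, 23 and 25 in TGF-β1 samples. Peg10, a paternally expressed gene derived from a retrotransposon, had 7 within and around its 13.2 kb, with 3, 4 and 4 peaks in control and 6, 5 and 5 in TGF-β1 samples. At both genes every TGF-β1 sample was higher (exact permutation test, p = 0.1 each, not adjusted). Sgce, which shares the control region of Peg10 and codes for ε-sarcoglycan, had 11 regions with 7, 8 and 7 peaks, and 10, 7 and 8, with overlap. Asb4 and Calcr had 4 and 2 regions, and Plag1, which lies on chromosome 4 and not in this cluster, had 2.

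Of a list of 9 genes headed developmental regulators, which also held genes of other kinds such as Penk, 7 had a region. Cdk6 had 29 regions with 14, 15 and 16 peaks in control and 22, 20 and 18 in TGF-β1 samples, again without overlap (exact permutation test, p = 0.1, not adjusted). Esr1 had 25 regions with 12, 13 and 16 peaks, and 10, 16 and 18, and Xkr4 had 9. Sox17, Hnf4g, Mos and Penk had 1 each. Groups without overlap were thus found at Ppp1r9a, Peg10 and Cdk6 among the genes of these lists, which were chosen with earlier results known. Each was higher in the TGF-β1 samples, which were the deeper ones, and the part of depth was not tested. Over all 445 genes of the window, 3.15% were higher in this way, beside 3.90% of genes in the genome.

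The differentially methylated genes listed by the study were chosen on these samples and are not independent evidence. Their 96 unique symbols were read from its supplement, 87 were found in the annotation, and 3 of these had a region in the window. Dtnb, a dystrobrevin gene, had 17 regions with 6, 7 and 8 peaks in control and 13, 6 and 7 in TGF-β1 samples. Cdc123 had 8 with 3, 2 and 5 peaks, and 3, 2 and 6, and the periplakin gene Ppl had 5 with 1, 0 and 2 peaks, and 1, 2 and 2. The groups overlapped in number of peaks at all 3 genes. The study tested read counts in single regions, whereas peaks were counted here over the gene and 2 kb on either side. These counts are therefore no test of its calls. Cdc123 and Ppl had 0 regions called in every sample, so the limma fit did not cover them.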

How the data were processed

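The members, gene lists and tests were chosen with earlier results of these data known. According to the methods and headers, the authors aligned clean reads to mm9 with BWA, kept uniquely mapped reads, counted reads with the same start once, and called peaks in each sample with MACS 2.1.0.20150731 at a q of 0.01, with no input control. Pileup was deposited as a signal, the depth of extended reads at the summit, without scaling for depth by the authors. The deposited fold enrichment is its ratio to the local background, and p-values and q-values were deposited as −log10. Length is in bp as deposited. Positions count from 1.

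Sequence and genes came from NCBIM37, the assembly of mm9, with GENCODE vM1, and no peak ran past a chromosome end. Density used bases other than N. Gene elements were assigned by summit, in the order coding exon, 2 kb upstream, untranslated exon, intron. Words of 31 bases were counted on both strands over chromosomes 1 to 19, X and Y. Python 3.11.15, numpy 2.4.6, pandas 2.3.3, numba 0.67.0 and, for regions, limma 3.58.1 in R 4.3.3 (lmFit, eBayes with trend) were used, the last tested on simulated data. The study's methods tested read counts, which peak lists do not hold, so its thresholds were applied to limma on log2 pileup, with each sample centred on its median. The limma adjusted p is Benjamini-Hochberg over all regions with a peak in all 6 samples.

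Samples were grouped by the treatment label. Window and rest were compared by exact sign-flip tests over 6 samples, the groups by exact permutation tests. Named were the 3 highest and 3 longest regions, the 3 smallest p-values and the 3 highest group-exclusive regions in each direction, the 3 chromosomes at either end, the 3 genes with most regions, and the genes of fixed lists; the next 12 highest regions and those beyond 100 kb were added after values were seen. Depth was 9407103 to 13291419 reads a sample, which limits the precision of the calls, and uncalled regions hold unknown signal. Alternatives were a −log10 q or fold enrichment of at least 5, other windows, chromosomes, joins, scalings and samples. Overlap counts without strand, and repeats may take reads from their copies. Peaks of chromosomes X, Y and 8 and of unplaced sequence entered only counts over the whole series.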

Additional observations from a re-analysis of the deposited data

How the results depend on the processing

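Apart from leaving out 1 sample, 107 values under an alternative neither turned direction nor changed side of the threshold. For counts this meant a move of no more than 1.5 times. Of the others, 7 turned direction, 7 lost the threshold, 1 passed it and 6 moved by more than the replicate SD or, for counts, by over 1.5 times. The 107 include values of the 5 measures between groups. Their p cannot go below 0.1 with 3 samples a group, so their side was fixed. Also included is median pileup at a −log10 q of at least 5, where window and rest differed by 0. Against 6 to 9 Mb in place of the rest, density differed by 3.34 peaks per Mb and peaks per 1000 CpG by 0.210 (exact sign-flip test, p = 0.03125 and adjusted p = 0.0938 for both). Mean length differed by 2.07 bp (exact sign-flip test, adjusted p = 0.25), while median pileup (-0.0432), median fold enrichment (-0.0214) and shared peaks (-0.227 percentage points) turned direction. With the window at 3 to 4 Mb, the difference in median pileup was 0.115 (adjusted p = 0.0375) and that in shared peaks 1.20 percentage points (0.0625), and the group-exclusive regions numbered 7 of 1195 in TGF-β1 (0.586%, beside 0.948% of all regions) and 1 in control (0.0837%, beside 0.233%). The density difference was 0.774 without chromosome 19 and, in alternatives chosen after seeing the data, 0.193 without chromosome 11 and 0.953 with chromosomes given the same weight, whereas leaving out chromosome 14 or the first 100 kb of sequence changed no call. Without chromosomes 9 and 11, also chosen after seeing the data, the first 100 kb differed from 100 to 1000 kb by -2.94 peaks per Mb in place of 9.92, by 0.164 in place of 0.848 in median pileup and by 68.0 in place of 112 bp in mean length. Between the groups, the difference (TGF-β1 minus control) in the share of peaks turned to 0.0123 percentage points at a fold enrichment of at least 5, that in window peaks to -19.3 per 1000000 reads, and that in median pileup to 2.33 without division by reads. Regions at an unadjusted p below 0.05 numbered 77 of 2222 when a peak in at least 3 samples sufficed (3.47%, beside 4.05% of all regions) and 31 of 975 with fold enrichment (3.18%, beside 4.41%). The cause was not tested.

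Leaving out each sample in turn gave 1.59 to 1.96 for density, 0.306 to 0.349 per 1000 CpG, 11.7 to 13.4 bp for length, 0.0489 to 0.0702 for median pileup, 0.119 to 0.168 for fold enrichment and 1.01 to 1.72 percentage points for shared peaks. With 5 samples the sign-flip test cannot go below 0.0625, so these calls were lost by construction. Between the groups it gave 127.5 to 366 peaks, -0.0499 to -0.000601 percentage points, 4.38 to 14.6 bp, -0.234 to -0.145 in median pileup and -0.334 to -0.277 in fold enrichment. In limma 0 regions passed the thresholds throughout, and 30 to 76 had an unadjusted p below 0.05, 76 without control sample 1 (7.79%, beside 5.93% of all regions) and 30 without TGF-β1 sample 1 (3.08%, beside 3.19%). Same-numbered samples did not deviate together (r = -0.0464, 0.0432 and -0.130), which shows no pairing by number but cannot exclude one. With the replicate block the p-values were 0.25 for number (245 peaks), 0.5 for share (-0.0269), and 0.25 for length (9.70 bp), median pileup (-0.192) and fold enrichment (-0.302), where 0.25 is the smallest possible, and limma gave 0 regions past the thresholds and 38 at an unadjusted p below 0.05. Depth limits these lists to pileups of at least 8 to 10.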
